A study of Homo sapiens with 18 samples.

Results

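The autophagy and lysosome machinery was followed through 38 genes in MOLM-13 cells, a human acute myeloid leukemia line that carries a KMT2A rearrangement (KMT2A-r AML). The cells were treated for 72 h with 100 nM PR-957, a selective inhibitor of the immunoproteasome subunit PSMB8 (LMP7), or with DMSO as the diluent control. The time is that of the sample labels, and a figure legend of the study gives a shorter one. Chromatin was profiled by Cut&Tag, in which an antibody tethers a transposase that cuts and tags the DNA around a histone modification, and 4 modifications were read in 2 libraries per treatment each, 16 libraries in all. The 2 IgG samples were not analysed here. The genes were the 38 named members of the module, out of 20020 protein-coding genes of the annotation. For each modification a gene was represented by whichever interval within 2 kb of its annotated transcription start sites (TSS) had the most counts on average over the 4 libraries. This rule reads the mean over all 4 libraries and not the difference between treatments.

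Autophagy wraps cytoplasm in a growing double membrane, closes it and delivers it to the lysosome, where acid hydrolases break the contents down. The ULK kinase complex starts the process, a class III phosphatidylinositol 3-kinase complex marks the membrane, lipid transfer and WIPI proteins expand it, and a ubiquitin-like conjugation system attaches ATG8 proteins such as LC3B, which cargo receptors then bind. The MiT/TFE transcription factors TFEB, TFE3 and MITF switch on many of these genes by binding E-box sequences in their promoters. The pathway is the cell's other main route of protein degradation beside the proteasome. Of the modifications, H3K4me3 marks active promoters, H3K27ac marks active promoters and enhancers, H3K4me1 marks enhancers and the flanks of promoters, and H3K27me3 is the mark of Polycomb repression.

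Counts over all intervals summed to between 9885836 and 14165777 per library for H3K27ac, 10032503 and 12047958 for H3K27me3, 15204186 and 30584219 for H3K4me1, and 30070119 and 44591150 for H3K4me3. In H3K4me3 and in H3K4me1 both DMSO libraries were deeper than both PR-957 libraries, and the part of depth in the results was not tested. An H3K4me3 interval lay at 10 of 12 myeloid marker genes, from 0.559 (ANPEP) to 10.4 (SPI1) CPM (counts scaled to a common library total) per kb with a median of 3.43, while MPO and PTPRC had none. It lay at 0 of 5 T cell markers, 2 of 4 B cell markers (3.19 and 3.31 CPM per kb, near the myeloid median), 1 of 4 erythroid and 3 of 4 epithelial markers. The levels in the last 2 lists, 0.417 to 0.872, overlapped those of the myeloid genes ANPEP, CEBPE (0.688) and ITGAM (0.711). No source used here states that the 2 libraries of a group came from separate cultures, so every p-value below measures the spread between libraries, which may be technical. Bulk profiles cannot tell fewer marked cells from less mark per cell.

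The promoters of the members carried the sequence that MiT/TFE factors read in a few cases. RefSeq windows of 300 bases (250 before to 50 after the start, GRCh38.p14) were matched for 34 of 38 members, with 43 windows. RB1CC1 and the lysosomal members HEXA, ATP6V1H and CTSB had no window, so their promoters were not searched. The E-box CACGTG, which reads the same on both strands, was found in 5 of 43 windows (11.6%), against 7.26% of all 35116 windows. Those 5 genes were LAMP1, the main glycoprotein of the lysosomal membrane, MCOLN1, a lysosomal calcium channel, CTSD, an aspartic protease, ATG14, the subunit that steers the class III kinase to autophagy, and ATG3, the enzyme that transfers ATG8 proteins to lipid. The longer form TCACGTG and the palindromic CLEAR element contain the same E-box and were searched on both strands. TCACGTG was found in the same 5 windows, against 3.71% of all windows. All windows belong to 27305 gene symbols, more than the protein-coding genes, and have a median of 14 CG dinucleotides, against 27 for the members. CACGTG itself holds a CG, and the shares were not matched for this. In 142 windows of the other pathway genes described below, CACGTG was found in 16.9% and TCACGTG in 14.1%. The CLEAR element was found in 1 window, that of MCOLN1, against 0.353%. TGACNNNGC, the core recognized by NRF2-type factors, was found in 5 of 43 windows (11.6%) on either strand, against 13.3% of all windows. The stretches that carry the E-boxes are shown because they are the member sequences with a direct tie to the pathway's own transcription factors. Each runs 5′ to 3′ on the gene's strand and ends at the base before the start, with CACGTG in capitals. They lie at chr13:113297039-113297238 (LAMP1, plus strand), chr19:7522524-7522623 (MCOLN1, plus), chr11:1763928-1764027 (CTSD, minus), chr14:55411831-55411930 (ATG14, minus) and chr3:112561963-112562062 (ATG3, minus).
LAMP1: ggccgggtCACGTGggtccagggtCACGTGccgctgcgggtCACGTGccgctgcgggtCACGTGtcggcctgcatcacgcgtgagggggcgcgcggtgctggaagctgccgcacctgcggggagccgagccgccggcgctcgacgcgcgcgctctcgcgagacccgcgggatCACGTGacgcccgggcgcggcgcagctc
MCOLN1: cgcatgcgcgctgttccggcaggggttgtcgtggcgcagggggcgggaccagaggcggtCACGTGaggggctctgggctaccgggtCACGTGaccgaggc
CTSD: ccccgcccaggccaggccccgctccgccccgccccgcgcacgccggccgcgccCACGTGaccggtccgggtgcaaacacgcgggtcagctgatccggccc
ATG14: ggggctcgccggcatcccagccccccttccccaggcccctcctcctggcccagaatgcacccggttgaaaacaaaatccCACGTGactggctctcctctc
ATG3: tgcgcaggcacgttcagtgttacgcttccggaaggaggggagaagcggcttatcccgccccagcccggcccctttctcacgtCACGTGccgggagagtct

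LAMP1 held 5 E-boxes in this stretch, 4 of them within a run that starts 192 bases before the start, and a single one 28 bases before it. MCOLN1 held 2, of which the one nearer the start is the CLEAR element. All 5 windows lay under an H3K4me3 interval and an H3K27ac interval. A sequence match is a description of these letters and does not say that a factor was bound.

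Most member starts were CpG-rich and carried H3K4me3. Of the 43 windows, 38 overlapped an H3K4me3 interval (88.4%), 36 an H3K27ac interval, 18 an H3K4me1 interval and 0 an H3K27me3 interval. Of all RefSeq windows, which take in more than the protein-coding genes, 45.7% overlapped an H3K4me3 interval. By the wider measure of 2 kb around a start, 63.9% of protein-coding genes had one. The median number of CG dinucleotides was 29 in the 38 windows with H3K4me3 and 7 in the 5 without. Over all windows the medians were 27 with H3K4me3 and 4 without. MITF shows the split within a single gene, since RefSeq gives it 3 starts that lie far apart. The first start had 30 CG dinucleotides in its window (GC content 70.3%) and lay under an H3K4me3 and an H3K27ac interval. The middle start had 8 (46.3%) and lay under H3K4me1 only, and the last start had 6 (37.0%) and lay under no interval. The 100 bases before each start are shown in that order, with CG in capitals, from chr3:69739364-69739463, chr3:69763711-69763810 and chr3:69936492-69936591, plus strand.
MITF first start: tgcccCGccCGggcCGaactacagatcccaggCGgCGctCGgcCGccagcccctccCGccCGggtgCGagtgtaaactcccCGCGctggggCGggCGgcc
MITF middle start: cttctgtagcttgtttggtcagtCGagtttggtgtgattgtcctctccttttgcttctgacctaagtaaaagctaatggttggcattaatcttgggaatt
MITF last start: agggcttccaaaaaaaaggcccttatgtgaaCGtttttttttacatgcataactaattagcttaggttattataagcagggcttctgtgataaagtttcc

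The other windows without H3K4me3 were second starts of ATG5 (2 CG dinucleotides) and WIPI2 (7), and the start of ATG16L1 (26). The window of TAX1BP1 with 3 CG dinucleotides overlapped H3K4me3 although it was CG-poor.

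**Figure D1:**
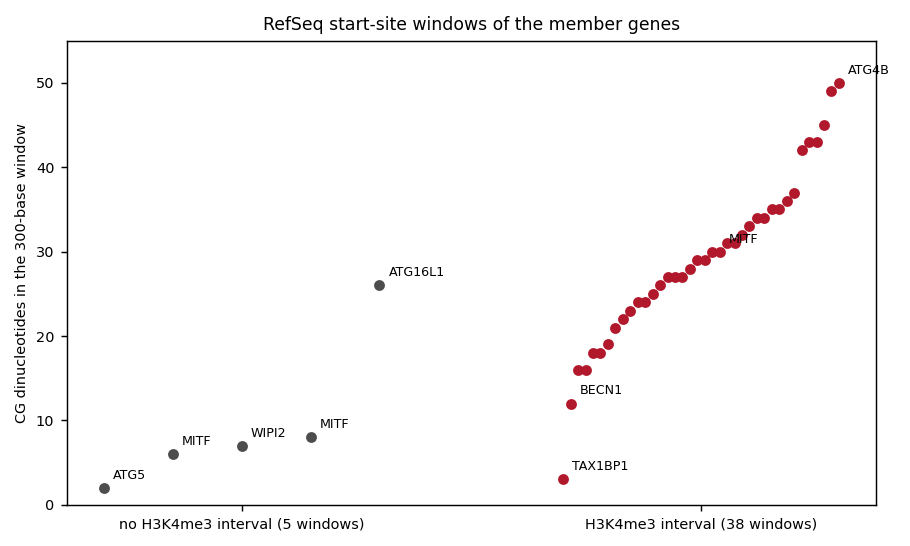
CG dinucleotides per 300-base RefSeq window (vertical axis) for the 43 windows of 34 members, split by overlap with an H3K4me3 interval; each point is a window and points are spread sideways by rank. The 38 windows with H3K4me3 run from 3 to 50 CG dinucleotides, and 4 of the 5 without it lie at 2 to 8, with ATG16L1 at 26.

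Nearly every member had an H3K4me3 and an H3K27ac interval near a start, and none had an H3K27me3 interval there. The libraries of both treatments share a list of intervals, so presence in it is not a measurement of DMSO alone. An interval lay within 2 kb of a TSS of 36 of 38 members for H3K4me3, 35 for H3K27ac and 30 for H3K4me1, and of 0 of 38 for H3K27me3. Among all protein-coding genes the shares were 63.9%, 60.4%, 43.5% and 19.9%. ATG16L1, which directs LC3 conjugation to the membrane, and CTSB, a lysosomal cysteine protease, had no interval of any modification within 2 kb. The nearest interval of any modification lay 138 kb from ATG16L1 and 140 kb from CTSB, so their chromatin was not analysed here. WIPI1 had H3K4me3 and no H3K27ac interval. ULK2, ATG14, ATG3, ATG10, GABARAPL1 and NBR1 had no H3K4me1 interval.

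Levels were compared between genes per length, as CPM per kb of interval in DMSO. Percentiles rank a gene among the protein-coding genes with a tested interval, and genes without one were left out. The members' median percentile was 69.4 among 12790 genes for H3K4me3, 50.2 among 12085 for H3K27ac and 46.3 among 8700 for H3K4me1. RB1CC1 (FIP200), the scaffold of the ULK complex, was highest for H3K4me3 with 14.9 ± 0.29 (SD, n = 2), percentile 99.7, and for H3K27ac with 24.8 ± 1.7, percentile 99.8. The next members for H3K4me3 were ATG9A, a lipid scramblase of the vesicles that seed the membrane, with 8.66 ± 0.25, ATG3 with 8.36 ± 0.44 and the proton pump subunit ATP6V1H with 7.94 ± 0.47. Neighbors in this order of 3 lay within their spread of each other, and all lay well below RB1CC1. The lowest H3K4me3 level was that of PIK3C3 (VPS34), the lipid kinase itself, with 1.90 ± 0.088, followed by WIPI1 with 2.33 ± 0.17 and TFE3 with 2.36 ± 0.090, and the latter 2 did not differ beyond their spread. For H3K27ac, the interval representing ULK1 was lowest with 1.15 ± 0.15, but it lies 12243 bases from the representative start, where the level was 2.203 ± 0.338 (percentile 19.1). MITF with 1.47 ± 0.10 and OPTN with 1.87 ± 0.0012 were the next.

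By role, the conjugation machinery had the highest median level for H3K4me3 (7.17 CPM per kb over 6 genes) and for H3K27ac (9.36 over 6 genes). The 3 MiT/TFE factors were low for H3K27ac among genes with an interval, with a median of 2.34 CPM per kb and a median percentile of 23.7. TFEB had the widest H3K4me1 interval of the members tested. It was 26.5 kb wide (width percentile 98.7) and reached from its starts into the gene, at 4.82 ± 0.36 CPM per kb (percentile 97.9), near the 4.36 ± 0.58 of ATG13, with 135 and 121 CPM in DMSO and 126 and 127 CPM in PR-957. All 4 libraries of this interval lay in a narrow range, and its log2 fold change was -0.02 (SE 0.13, edgeR adjusted p = 0.964).

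**Figure D2:**
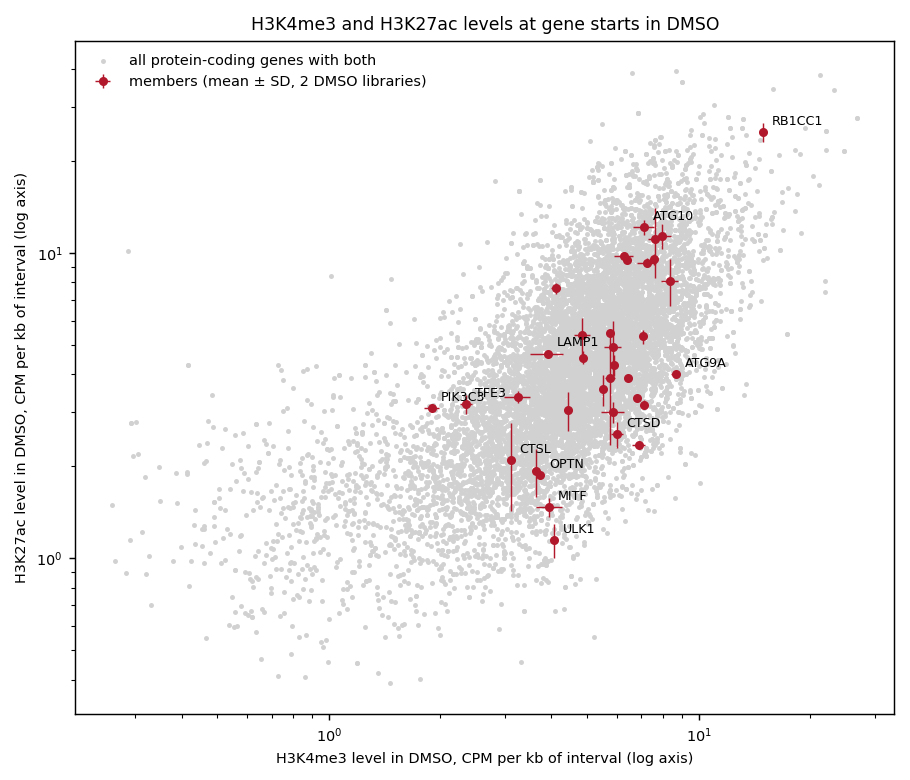
H3K4me3 level (horizontal) against H3K27ac level (vertical) of the interval representing each gene, in CPM per kb on log axes, as means of the 2 DMSO libraries; gray points are protein-coding genes with both intervals and red points are members with SD bars. RB1CC1 sits at the upper right with 14.9 and 24.8 CPM per kb, PIK3C3 at the left with 1.90 for H3K4me3, and ULK1 at the bottom with 1.15 for H3K27ac.

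Some representing intervals belonged to a neighbor as well. Of the 36 H3K4me3 intervals, 12 also held the representative start (the MANE Select start, or the Ensembl canonical one) of another gene, such as SLC35A5 beside ATG3, ANKZF1 beside ATG9A, AP3S1 beside ATG12 and THAP4 beside ATG4B. The H3K4me3 interval of GABARAP was 13.6 kb wide and held the starts of DVL2 and PHF23. The representing interval lay away from the gene's own representative start for BECN1 (7801 bases away, over PSME3), MAP1LC3B (6495 bases away, over FBXO31) and MCOLN1 (10700 bases away, over PNPLA6) in H3K4me3. In H3K27ac, 30 of 35 representing intervals lay within 2 kb of the representative start, and in H3K4me1 17 of 30 did. For some members, values at the representative start are therefore given as well.

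Treatment with PR-957 left no member with a called change in any of the 3 modifications that could be tested at its start. In H3K4me3, 0 of 36 members passed an adjusted p of 0.05, where 0.226% of all 59229 intervals did. In H3K27ac it was 0 of 35 members, against 0.238% of 74510 intervals, and in H3K4me1 0 of 30, against 1.94% of 108158 intervals. Over all protein-coding genes tested, each represented by the same rule, 0.219% passed in H3K4me3, 0.48% in H3K27ac and 2.15% in H3K4me1. At these rates a list of this length would hold at most about a single call, so the counts of 0 do not set the members apart from other genes. Without DMSO replicate 2 of H3K27ac, 1 member passed (GABARAPL1, below). Over every interval within 2 kb of the members' starts the counts were 0 of 175 for H3K4me3, 0 of 179 for H3K27ac and 0 of 134 for H3K4me1. At an unadjusted p under 0.05 there were 3 members in H3K4me3 (7.52% of all intervals), 1 in H3K27ac (8.01%) and 5 in H3K4me1 (16.2%). The shares of all protein-coding genes tested were 8.04%, 9.55% and 16.9%, in the same order. DESeq2 called no member either, where it called 0.0574% (H3K4me3), 0.114% (H3K27ac) and 0.024% (H3K4me1) of all intervals. It gave no adjusted p for GABARAPL1 and HEXA in H3K27ac or for PIK3C3 in H3K4me1, so it could not call these. The DESeq2 shares count intervals without an adjusted p as not called. The H3K27me3 test had no member at its start.

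The estimates themselves were small and centered on 0. In H3K4me3 the median log2 fold change (PR-957 over DMSO) of the members was -0.0095, against -0.010 over the 12790 protein-coding genes tested, with 15 estimates above 0 and 21 below and a range of -0.19 to 0.25. In H3K27ac the median was 0.00012, against 0.00055 over 12085 genes, with 18 above and 17 below and a range of -0.26 to 0.37. In H3K4me1 the median was 0.014, against -0.077 over 8700 genes, with 15 on each side and a range of -0.80 to 1.39. The 95% intervals give the range of changes that each estimate allows. A call needed an adjusted p under 0.05 over all intervals, which is a stricter bar than a 95% interval that leaves out 0. For H3K4me3, the interval of the fold change lay within 1.5-fold either way for 36 of 36 members. For H3K27ac it did so for 28 of 35, and within 2-fold for 35 of 35. For H3K4me1, where counts at member starts went down to 8 per library, it lay within 1.5-fold for 17 of 30 and within 2-fold for 22 of 30, so a 2-fold change lay within the error of the other 8.

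**Figure D3:**
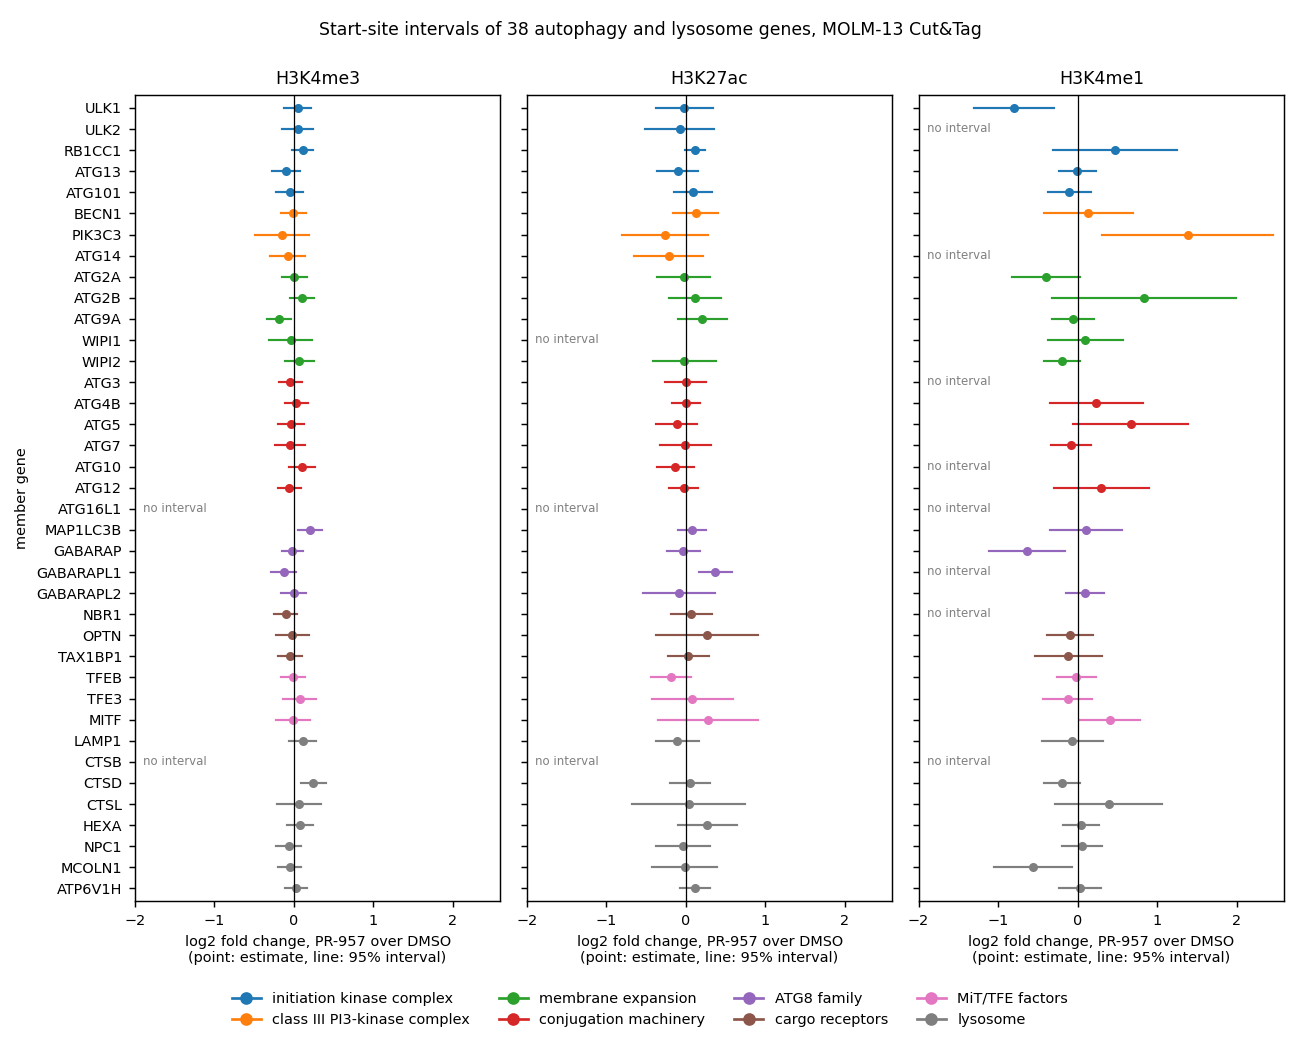
Log2 fold change (PR-957 over DMSO, horizontal axis) of the representing interval of each of the 38 members, with its 95% interval as a line, for H3K4me3, H3K27ac and H3K4me1; colors give the role in the pathway and gray text marks members without an interval. Points lie within -0.19 to 0.25 for H3K4me3 and within -0.80 to 1.39 for H3K4me1, where the lines are longest.

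In the initiation complex, the ULK1 kinase had the smallest p of the H3K4me1 test. Its H3K4me1 interval, 2.26 kb long and 468 bases downstream of the representative start, held 3.39 and 4.60 CPM in DMSO and 1.86 and 2.61 CPM in PR-957. The PR-957 libraries were both below both DMSO libraries, on raw counts of 100, 110, 29 and 60. The log2 fold change was -0.80 (SE 0.26) and the edgeR adjusted p was 0.0703, so the difference did not pass. With a window of 5 kb another interval represented ULK1, at -0.07 (adjusted p = 0.916). An H3K27ac interval over the same stretch held 4.01 and 3.23 CPM in DMSO and 6.84 and 5.91 CPM in PR-957. It was higher in both PR-957 libraries, with a log2 fold change of 0.80 (SE 0.27) and an adjusted p of 0.296. The estimates of the 2 modifications at this start thus had opposite signs and neither passed, and H3K4me3 there was 18.2 and 18.1 CPM in DMSO and 19.5 and 18.2 CPM in PR-957.

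RB1CC1 was among the 3 smallest p-values of H3K27ac. Its start held 97.3 and 88.1 CPM of H3K27ac in DMSO and 102 and 98.9 CPM in PR-957. For H3K4me3 it held 71.2 and 73.2 CPM in DMSO and 77.9 and 78.3 CPM in PR-957. Both modifications were higher in both PR-957 libraries, each by 1.08-fold, with adjusted p-values of 0.670 and 0.761 in edgeR. The H3K27ac log2 fold change of 0.11 was 0.19 without DMSO replicate 1 and 0.05 without DMSO replicate 2. ULK2, ATG13 and ATG101, the other kinase and the adaptors of the complex, had H3K4me3 log2 fold changes of 0.05, -0.10 and -0.05 and none passed.

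The class III kinase complex had 3 H3K4me3 estimates below 0, with a median log2 fold change of -0.076, and none passed. PIK3C3 had the third smallest p in H3K4me1, from an interval at an alternative start 92006 bases from the representative one. It held 0.271 and 0.753 CPM in DMSO and 1.41 and 1.22 CPM in PR-957, which are raw counts of 8, 18, 22 and 28. The groups did not overlap, but at these counts the 95% interval of the log2 fold change of 1.39 reached from 0.31 to 2.46, and the adjusted p was 0.162. The estimate was 0.79 without DMSO replicate 1, 2.25 without DMSO replicate 2 and 0.81 with loess offsets. BECN1, the regulatory subunit, had 6.71 and 7.26 CPM of H3K4me3 at its own start in DMSO and 6.30 and 6.54 CPM in PR-957 (log2 fold change -0.12, adjusted p = 0.918).

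Among the genes that expand the membrane, ATG9A had the third smallest p in H3K4me3. It held 39.1 and 37.5 CPM in DMSO and 34.7 and 32.7 CPM in PR-957, lower in both treated libraries, with a log2 fold change of -0.19 (SE 0.075) and an adjusted p of 0.471. Of the 5 H3K4me3 intervals within 2 kb of its starts, which lie at 2 separate places, 4 had estimates below 0 and 1 above. The narrowest interval was the one above, at 0.20 (edgeR adjusted p = 0.962). H3K27ac over the same start was 15.4 and 15.3 CPM in DMSO and 18.6 and 17.0 CPM in PR-957, on the other side (0.21, adjusted p = 0.805). This start is shared with ANKZF1, so the reads cannot be given to either gene. In the conjugation machinery, which builds the ATG12-ATG5 conjugate and loads ATG8 proteins onto lipid, the 6 genes tested had H3K27ac log2 fold changes from -0.13 (ATG10) to 0.0036 (ATG4B), and H3K4me3 ones from -0.06 to 0.11. For ATG7, the shared activating enzyme, the representing interval overlapped between treatments in each modification tested. Among the 12 H3K4me1 intervals within 2 kb of its starts, the smallest edgeR p was 0.0050 (adjusted p = 0.109).

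In the ATG8 family, GABARAPL1, a protein with roles in membrane closure, had the smallest p of the H3K27ac test. Its start held 24.4 and 35.3 CPM in DMSO and 36.9 and 39.0 CPM in PR-957. The PR-957 libraries were the 2 highest, but the DMSO libraries differed from each other by more than DMSO replicate 2 differed from either of them. The log2 fold change was 0.37 (SE 0.11) with an adjusted p of 0.119. Without DMSO replicate 2 it was 0.64 and passed (adjusted p = 0.00249), and without DMSO replicate 1 it was 0.11 (adjusted p = 0.939), so a single DMSO library decided the estimate. H3K4me3 at the same start was 26.5 and 25.0 CPM in DMSO and 23.8 and 23.5 CPM in PR-957, lower in both (log2 fold change -0.12, adjusted p = 0.791).

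GABARAP had the second smallest p in H3K4me1, with 3.73 and 4.81 CPM in DMSO and 3.40 and 2.17 CPM in PR-957. The treated libraries were both lower, by a log2 fold change of -0.64 (SE 0.24), with an adjusted p of 0.139. It was -0.32 without PR-957 replicate 2, -0.96 without PR-957 replicate 1 and, with a window of 5 kb, -0.12 (adjusted p = 0.792). MAP1LC3B, which encodes LC3B, the usual marker of autophagosomes, had the second smallest p in H3K4me3, with 27.9 and 30.2 CPM in DMSO and 32.7 and 34.4 CPM in PR-957 (0.21, adjusted p = 0.364). That interval lies over FBXO31. At the representative start of MAP1LC3B itself, H3K4me3 was 25.4 and 27.7 CPM in DMSO and 28.4 and 27.9 CPM in PR-957, for a log2 fold change of 0.09 (SE 0.078) with an adjusted p of 0.881. The cargo receptors NBR1, OPTN and TAX1BP1 had H3K4me3 estimates of -0.10, -0.02 and -0.04 and H3K27ac estimates of 0.07, 0.27 and 0.03.

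For the MiT/TFE factors the H3K4me3 log2 fold changes were -0.01 for TFEB, 0.08 for TFE3 and -0.01 for MITF. Among their representing intervals, that of MITF in H3K4me1 had an unadjusted p under 0.05. This interval, over the middle start shown above, held 4.54 and 4.60 CPM in DMSO and 6.42 and 5.74 CPM in PR-957, higher in both treated libraries, with a log2 fold change of 0.40 (SE 0.19) and an adjusted p of 0.268.

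Of the lysosomal members, CTSD had the smallest p of the H3K4me3 test. Its start, with the E-box printed above, held 22.2 and 23.4 CPM in DMSO and 27.3 and 26.8 CPM in PR-957. The treated libraries were higher by more than the libraries of either group differed, at a log2 fold change of 0.25 (SE 0.080), and the adjusted p of 0.230 did not pass. Of the 6 H3K4me3 intervals within 2 kb of its starts, 4 had estimates above 0 and 2 below. The narrowest interval was among those below, at -0.18 (edgeR adjusted p = 0.958). H3K4me1 over CTSD was 32.9 and 34.6 CPM in DMSO and 29.0 and 29.7 CPM in PR-957, on the other side (-0.20, adjusted p = 0.379). The other genes with an E-box had H3K4me3 log2 fold changes of 0.11 (LAMP1), -0.04 (ATG3), -0.08 (ATG14) and, at its own start, 0.06 (MCOLN1), none of which passed.

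HEXA, a subunit of beta-hexosaminidase, had the third smallest p in H3K27ac, with 8.40 and 11.5 CPM in DMSO and 10.5 and 13.1 CPM in PR-957. These groups overlapped, and the log2 fold change of 0.27 (SE 0.19) had an adjusted p of 0.779. Leaving out a single library moved it between 0.05 (without DMSO replicate 1) and 0.50 (without DMSO replicate 2). Dropping PR-957 replicate 2 gave 0.09 and dropping PR-957 replicate 1 gave 0.41. MCOLN1 had an H3K4me1 log2 fold change of -0.56 (adjusted p = 0.232), from an interval over PNPLA6 with 3.93 and 3.68 CPM in DMSO and 2.05 and 3.00 CPM in PR-957. NPC1, the lysosomal cholesterol transporter, and ATP6V1H had log2 fold changes between -0.06 and 0.11 in the 3 modifications.

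**Figure D4:**
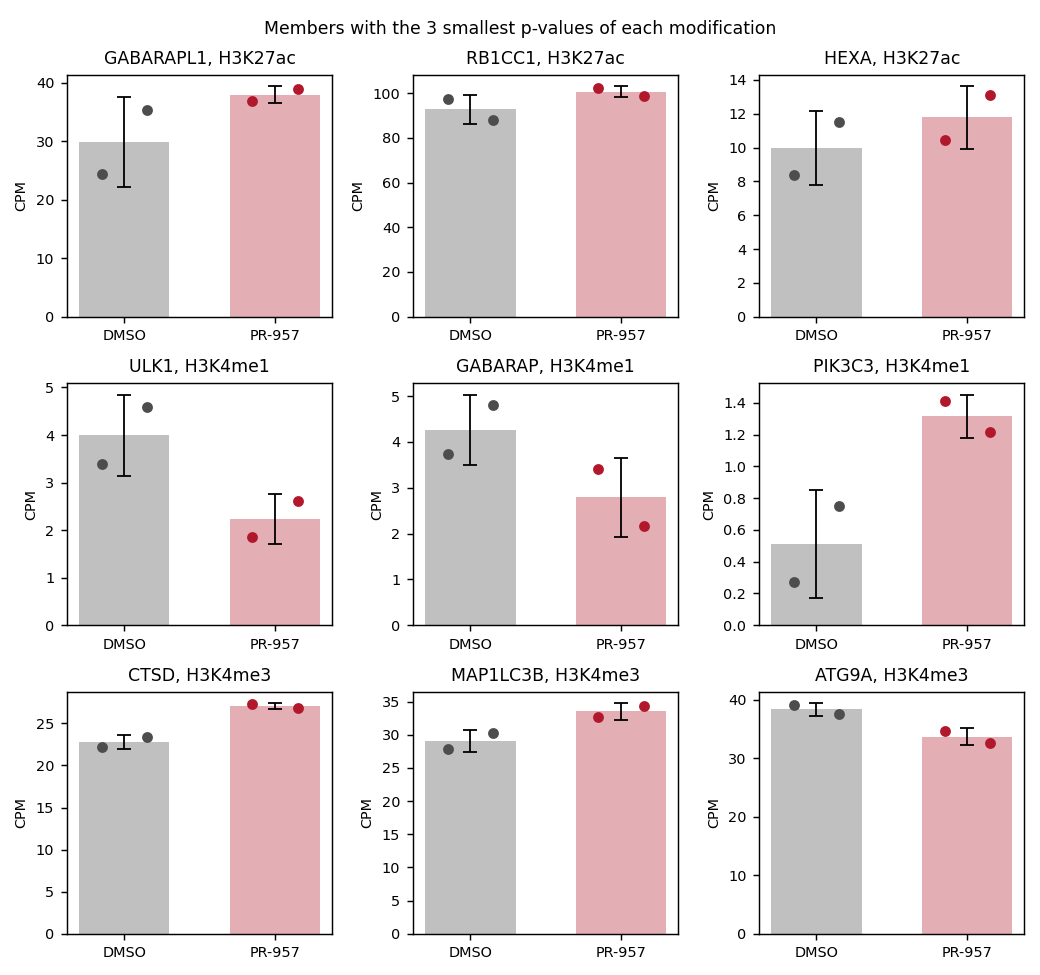
CPM of the 3 members with the smallest p-values in H3K27ac (top), H3K4me1 (middle) and H3K4me3 (bottom); points are libraries, bars are means of 2 libraries and whiskers are SD, on axes that start at 0. The gap between the DMSO points is widest for GABARAPL1 (24.4 and 35.3 CPM) among the H3K27ac panels, and no panel passed an adjusted p of 0.05.

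The PR-957 and DMSO libraries did not overlap in 16 of 36 members for H3K4me3 (36.6% of all intervals), 14 of 35 for H3K27ac (36.9%) and 13 of 30 for H3K4me1 (46.7%). Of the H3K27ac members, 10 were higher and 4 lower in PR-957, where 18.1% and 18.8% of all intervals were. For H3K4me3 it was 9 higher and 7 lower (18.1% and 18.4% of all intervals), and for H3K4me1 6 and 7 (23.5% and 23.2%). These shares are given as a description, and no member passed the test.

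Taken at the representative start alone, 36 members had an H3K4me3 interval, 35 an H3K27ac and 23 an H3K4me1 interval, and 0 passed in each. At an unadjusted p under 0.05 there were 2 members in H3K4me3 (CTSD higher, ATG9A lower), 2 in H3K27ac (ULK1 and GABARAPL1, both higher) and 3 in H3K4me1, all lower, beside the shares of 7.52%, 8.01% and 16.2% of all intervals. The median H3K4me1 log2 fold change there was -0.069. The H3K4me1 members were ULK1 and GABARAP, as above, and WIPI2, a reader of the membrane lipid, with 1.59 and 2.76 CPM in DMSO and 0.898 and 1.39 CPM in PR-957 (-0.87, adjusted p = 0.222).

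Away from the starts, H3K4me1 intervals in 3 members passed the test. Over the gene spans with 10 kb on either side, 332 H3K4me1 intervals at 109 separate places were tested and 6 passed (1.81%, against 1.94% of all intervals), so the share was close to the background. All 6 were higher in PR-957, where 1.24% of all intervals were called higher and 0.701% lower. They formed 3 pairs of nested intervals. In ATP6V1H an interval at chr8:53757621-53763182 (hg38), within the gene and 82.8 kb downstream of its start, held 5.49 and 5.94 CPM in DMSO and 10.1 and 8.001 CPM in PR-957. It rose by a log2 fold change of 0.65 (SE 0.17, edgeR adjusted p = 0.0136). In RB1CC1 an interval at chr8:52693387-52696653, within the gene and 19.4 kb downstream, held 8.37 and 8.53 CPM in DMSO and 12.6 and 12.3 CPM in PR-957, with a log2 fold change of 0.55 (SE 0.14, adjusted p = 0.0145). The libraries of each group lay close together here and far from the other group.

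In ATG5 an interval at chr6:106128290-106132157, within the gene and 196 kb downstream, held 4.10 and 3.76 CPM in DMSO and 6.03 and 6.44 CPM in PR-957. It had a log2 fold change of 0.67 (SE 0.20, adjusted p = 0.0447), and the nearest annotated start was that of PRDM1, 29350 bases away. None of the 3 was called by DESeq2 (adjusted p of 0.452 for ATP6V1H, 0.438 for RB1CC1 and 0.561 for ATG5), and loess offsets also ended the call of ATG5 (0.0608). With any single library left out, RB1CC1 had adjusted p-values of 0.0527 to 0.157 and ATG5 of 0.142 to 0.219. ATP6V1H kept its call without PR-957 replicate 2 (0.00702) and lost it without PR-957 replicate 1 (0.278), DMSO replicate 1 (0.199) or DMSO replicate 2 (0.0685).

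**Figure D5:**
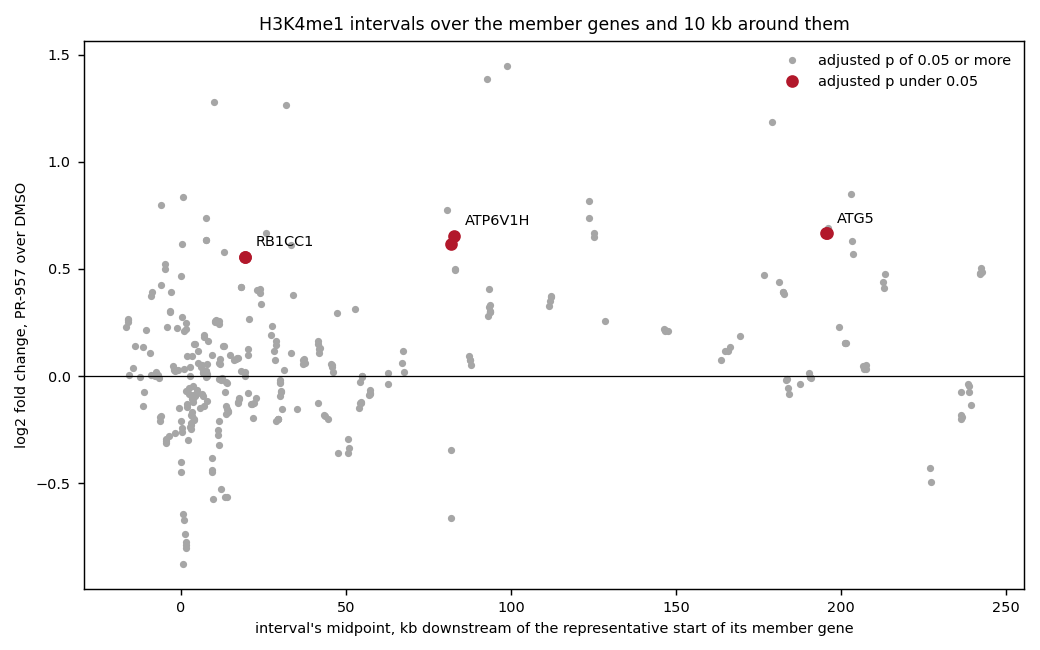
Log2 fold change (PR-957 over DMSO, vertical axis) of 332 H3K4me1 intervals against the distance of their midpoint from the representative start of the member gene in kb (horizontal axis, downstream to the right); each point is an interval and nested intervals plot close together. The red points are the 6 called intervals, at log2 fold changes of 0.55 to 0.67 in RB1CC1, ATP6V1H and ATG5.

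No H3K4me3 interval (0 of 246) and no H3K27ac interval (0 of 285) over the gene spans passed, where 0.226% and 0.238% of all intervals did. Without DMSO replicate 2, 4 H3K27ac intervals passed, all at GABARAPL1. By DESeq2 the count was 0 for both modifications, but the H3K27ac interval representing GABARAPL1 had no adjusted p there. At an unadjusted p under 0.05 in edgeR it was 26 for H3K4me3 (7.52% of all intervals) and 12 for H3K27ac (8.01%). For H3K4me1 it was 56 of 332 (16.2% of all intervals). H3K27me3 intervals lay near 8 members, 19 in all, each outside the gene itself, and none passed, where 5.92% of 31806 H3K27me3 intervals did. Of these, 6 had an unadjusted p under 0.05 (15.6% of all intervals). The smallest adjusted p was 0.0856, for an interval over the start of CDO1, which encodes cysteine dioxygenase, beside ATG12. It held 14.6 and 13.0 CPM in DMSO and 9.46 and 9.90 CPM in PR-957, for a log2 fold change of -0.50 (SE 0.18). Beside TFEB, 3 nested intervals with an unadjusted p under 0.05 had estimates of 0.36 to 0.42. The widest held 13.1 and 9.25 CPM in DMSO and 13.3 and 15.2 CPM in PR-957, where DMSO replicate 1 lay next to PR-957 replicate 1.

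Another 135 genes of the pathway were read in the same fit. They covered other autophagy genes, nutrient sensing at the lysosome, lysosomal hydrolases, lysosomal membrane proteins and the V-ATPase. Of these, 0 of 121 passed for H3K4me3, 0 of 117 for H3K27ac, 0 of 10 for H3K27me3 and 1 of 85 for H3K4me1. Over all protein-coding genes tested, 0.219%, 0.48%, 11.8% and 2.15% passed, in the same order. At an unadjusted p under 0.05 there were 8, 10, 2 and 13, beside 8.04%, 9.55%, 22.9% and 16.9% of all protein-coding genes tested. The gene that passed was CTSC (cathepsin C), the protease that activates the serine proteases of myeloid granules. Its H3K4me1 interval lay at an alternative start 14747 bases from the representative one and held 3.83 and 3.39 CPM in DMSO and 6.23 and 5.74 CPM in PR-957. It rose by a log2 fold change of 0.72 (SE 0.20, edgeR adjusted p = 0.0342). The call was lost by DESeq2 (adjusted p = 0.519), with the narrowest interval of the window (0.306) and with any single library left out (0.0791 to 0.214). H3K4me3 at the representative start of CTSC was 34.0 and 35.1 CPM in DMSO and 29.4 and 32.5 CPM in PR-957 (-0.16, adjusted p = 0.625).

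H3K27me3 lay within 2 kb of a start of 10 of these 135 genes, in contrast to 0 of 38 members. They included ATG9B, the relative of ATG9A, with 4.97 and 4.76 CPM in DMSO and 5.93 and 6.96 CPM in PR-957, LAMP3, an inducible relative of LAMP1, and LGMN (legumain), a lysosomal protease. LGMN had 39.8 and 32.4 CPM in DMSO and 29.6 and 29.9 CPM in PR-957, for a log2 fold change of -0.27 with an adjusted p of 0.153. The difference between 10 of 135 and 0 of 38 was not tested.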

How the data were processed

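MOLM-13 cells were profiled by Cut&Tag for 4 histone modifications, with 2 libraries per treatment. The authors deposited raw counts per interval for each library. Per the submitters' processing notes, Trimmomatic 0.39, Bowtie2 2.2.5, SAMtools 1.7, Picard 2.27.1, SEACR 1.3 and deepTools 3.5.1 were used with hg38; the counting tool and the handling of duplicates are not given in the sources used here. Intervals overlap and nest, so they are not independent.

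Each modification was fitted separately over all its intervals in edgeR 4.0.16 (R 4.3.3) with filterByExpr at a minimum count of 10, TMM factors and the quasi-likelihood test of PR-957 against DMSO, with Benjamini-Hochberg adjustment over all intervals and a threshold of 0.05. CPM are counts scaled by the library total and its TMM factor. Standard errors are the log2 fold change over the root of F, and 95% intervals use the moderated degrees of freedom. Scripts were tested on simulated counts. Starts came from GENCODE, and promoter windows from RefSeq.

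Members and lists were chosen with earlier results of these data known. For each modification the text names members past the threshold, the 3 smallest p-values, the highest and lowest H3K4me3 levels, and any other pathway gene or gene-span interval past the threshold; further members were named after their values were seen. Alternatives were DESeq2 1.42.0, factors from medians of ratios, library totals without factors, loess offsets, dropping the count filter or asking for a mean of 50 counts, a block for the replicate number, leaving out each library, windows of 1 kb and 5 kb and the narrowest interval; the representative start alone was added after seeing the data. The 2 IgG samples were not analysed here.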

Additional observations from a re-analysis of the deposited data

How the results depend on the processing

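No member was called in H3K4me3 or H3K4me1 under any alternative run, nor in H3K27ac except without DMSO replicate 2. Leaving out each library in turn gave 0 to 1 members called in H3K27ac, 0 to 4 gene-span intervals called in H3K27ac and 0 to 4 in H3K4me1 (6 with all libraries), and 0 to 1 other pathway genes called in H3K27me3 and in H3K4me1. The lone library of an arm is then assumed to vary like the others. The members' median log2 fold change ranged from -0.011 to 0.055 in H3K27ac and from -0.027 to 0.019 in H3K4me3 over these fits. With the narrowest interval of each window it was 0.074 in H3K27ac and 0.13 in H3K4me1. The H3K4me3 intervals that then represented CTSD and ATG9A had estimates of -0.18 and 0.20, against the direction of most intervals in their windows. The cause was not tested. At the representative start alone, chosen after seeing the data, the H3K4me1 median was -0.069.

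With library size only, 2 other pathway genes and 2 gene-span intervals were called in H3K27me3, and 2 and 10 in H3K4me1; this scaling moved the median of all H3K27me3 intervals to 0.18. Cyclic loess offsets gave 2 other pathway genes and 3 gene-span intervals in H3K4me1. DESeq2 gave 0 of each, and the narrowest interval gave 0 other pathway genes. Among the members, DESeq2 could not call GABARAPL1 and HEXA in H3K27ac or PIK3C3 in H3K4me1, for which it gave no adjusted p. A mean count of at least 50 gave 1 gene-span interval in H3K27ac. A window of 5 kb gave 3 members an H3K27me3 interval. With the replicate number as a block, 5 gene-span H3K4me1 intervals and 1 other pathway gene were called and the members' count stayed at 0. The log2 CPM difference between replicates 1 and 2 in DMSO was correlated over all intervals with the same difference in PR-957. The coefficients were -0.0018, -0.010, -0.0073 and 0.14 in H3K27ac, H3K27me3, H3K4me1 and H3K4me3. The replicate numbers, with 2 pairs each, were therefore not taken as pairs. The other 179 recomputed counts and medians stayed within 1.5 times or within the spread between libraries. With 2 libraries a group, and member counts down to 8 in H3K4me1, differences below about the interval widths given above could not be seen.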
